A study of Rattus norvegicus with 38 samples.

Results

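The comparison described here set 4 rats killed 24 h after methyl parathion against 4 vehicle rats killed at the same hour, 8 of the 38 rats of the study. All were male CDF Fisher 344 rats of approximately 4 months, randomly assigned to their groups. The treated rats had received a single intraperitoneal dose of 15 mg/kg methyl parathion suspended in vegetable oil, and the vehicle rats an equal volume of the oil. Each array holds the leukocyte RNA of 1 rat, taken from heart blood directly after head-focused microwave irradiation, caught on a filter and depleted of globin mRNA. The rats of the other 8 groups, which received the same chemical and were killed at 4, 12 or 168 h, or belonged to the acetaminophen arm (1200 mg/kg and its own vehicle rats), served for the estimate of the spread and for comparison. Of 26857 gene probes, 11319 were tested, those with a signal-to-noise ratio of at least 3 in at least 3 arrays of the treated or of the vehicle side.

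Methyl parathion is an organophosphate insecticide. The body converts it to an oxon that binds the active serine of acetylcholinesterase, the enzyme that breaks down the transmitter acetylcholine, so that acetylcholine accumulates at synapses. The oxon also binds butyrylcholinesterase, carboxylesterases and other serine hydrolases, and paraoxonases and glutathione transferases take part in its removal. Leukocytes carry acetylcholine receptors and respond to stress hormones such as glucocorticoids.

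At 24 h 345 probes passed the test, 3.05% of those tested, of which 105 were higher (0.928%) and 240 lower (2.12%) in the treated rats. The test was limma with Benjamini-Hochberg adjustment over all probes tested and a threshold of 0.05, and every adjusted p below comes from it. Exactly 1 gene symbol was known for 73 of these probes, which gave 37 genes that rose and 36 that fell among 3142 named genes tested, and 272 called probes had no single symbol. At an unadjusted limma p under 0.05 there were 2106 of the 11319 probes (18.6%), the share against which unadjusted counts of list members are to be read. The rises were small, with a median of 0.71 on the log2 scale, and the falls were larger, with a median of -1.39. In either direction 191 called probes changed by at least 1. A probe could enter the test through the vehicle side alone, as did the 47 called probes with exactly 1 treated array above the signal-to-noise limit. Called probes with 0 or 2 such arrays, among them Akap7 and Or5p78c, also entered in this way and are not in that count. The part of this filter in the number and size of the falls was not tested. The smallest adjusted p was 0.0036, that of Ppp2ca. The plot of change against p shows the lower calls reaching farther from 0 than the higher ones.

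**Figure D1:**
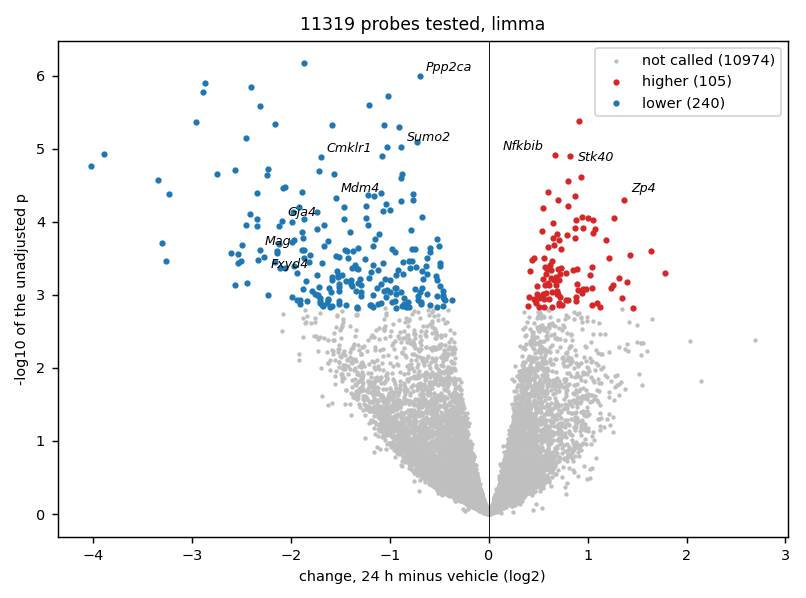
Each point is 1 of the 11319 probes, with the change (24 h minus vehicle, log2) on the horizontal axis and the minus log10 of the unadjusted limma p on the vertical axis; 105 probes were called higher (red), 240 lower (blue) and the others (grey) were not called. The labelled genes are those described first in the text, and the lower calls extend to a change of about 4 on the log2 scale.

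The number of calls changed with the arrays used for the fit, with the vehicle rats compared and with single rats left out. With the 8 arrays alone limma called 0 probes (1494 at an unadjusted p under 0.05), with the 19 arrays of the methyl parathion arm 0 (1767 unadjusted), and against the vehicle rats of the acetaminophen arm 0 (2243 unadjusted), beside 2106 unadjusted in the comparison as reported. Against the 8 vehicle rats of both arms together 332 probes were called, 196 of them shared with the 345. Leaving out vehicle rat 1, 2 or 4 left 38, 60 or 194 calls, leaving out treated rat 3 or 4 left 29 or 20, and leaving out treated rat 1 gave 924. The vehicle rats of the 2 arms differed in 0 probes by the same test (1318 unadjusted), and 0 of 11319 probes were called 4 h after methyl parathion (1316 unadjusted). The treated group was the least uniform of the 10 groups, with a median within-group SD of 0.421 on the log2 scale against 0.231 to 0.357 in the others. Arrays of treated rats correlated with each other at 0.912 to 0.951 over probes, and those of vehicle rats at 0.957 to 0.987. Between treated and vehicle arrays the range was 0.920 to 0.965, so that treated arrays were no closer to each other than to vehicle arrays. Between 37.7 and 44.1% of probes were above the signal-to-noise limit in the treated arrays and between 40.2 and 51.7% in the vehicle arrays, and the part of detection in the calls was not tested.

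The split between higher and lower calls also depended on how the arrays were brought to 1 scale. With the authors' quantile normalization the median change of all tested probes was -0.06. When arrays were centred on their median instead, that median moved to -0.31, and 375 probes were called (3.31%), 6 higher (0.053%) and 369 lower (3.26%). When they were centred on their 75th percentile it moved to 0.04, and 234 were called higher and 157 lower. Of the 17 genes described below as risen, 1 (Zp4) passed the test with median centring, and all 17 passed it with the 75th percentile. Of the 18 described as fallen, 16 passed with median centring, all but Akap7 and Rpl39, and 13 with the 75th percentile, where Akap7, Casp4, Cyp2d1, Or10am5 and Rpl39 did not. None of these 35 genes changed its direction under either scaling. The 35 passed the test under 5 to 19 of the other settings (median 13). With 1 rat left out, Atox1, Creb1, Cyp2d1 and Pcsk2 passed in 1 of 8 cases and Rhoq in 0.

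**Figure D2:**
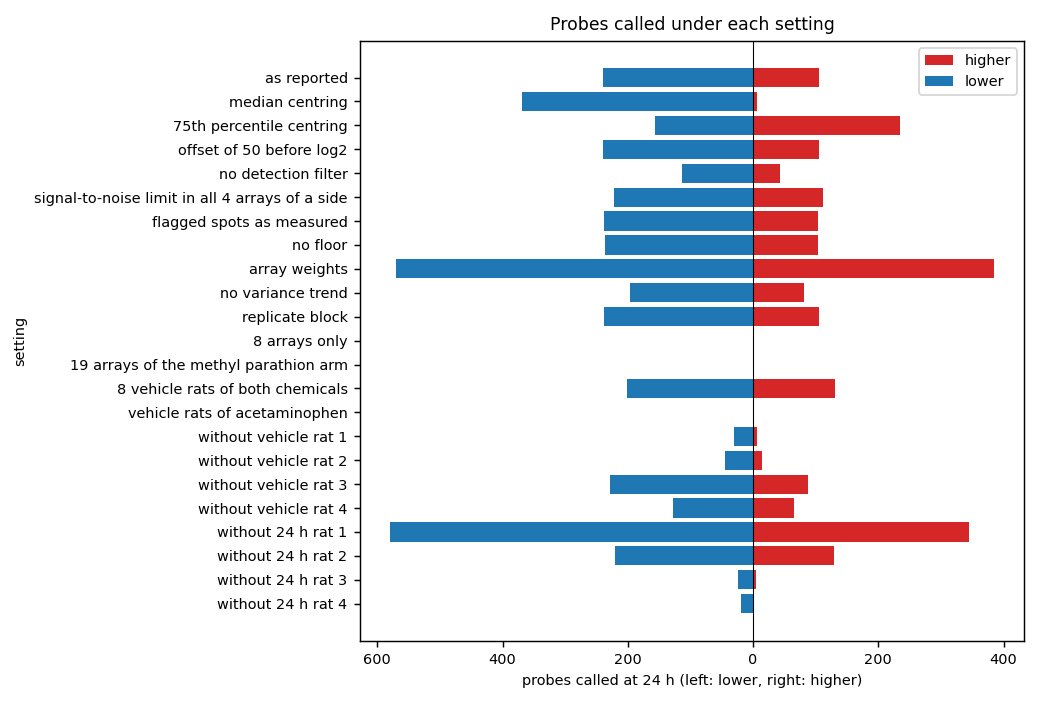
Bars give the number of probes called at 24 h under each processing setting on the vertical axis, lower calls to the left and higher calls to the right of 0. The setting as reported gave 240 lower and 105 higher; 3 settings gave 0, median centring gave 6 higher, and single omitted rats moved the total between 20 and 924.

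Ppp2ca, the catalytic subunit alpha of protein phosphatase 2A, had the smallest p of all named genes and passed the test under 19 of 22 other settings, including each of the 8 in which 1 rat was left out. Its normalised signals were 13.83, 13.93, 13.81 and 13.74 on the log2 scale in treated rats 1 to 4 and 14.82, 14.53, 14.21 and 14.53 in vehicle rats 1 to 4. All treated rats lay below all vehicle rats, and the treated values spanned less than the vehicle values. The signal fell by 0.70 on the log2 scale (SE 0.117, adjusted p = 0.0036, 1.62-fold lower). The 3 settings in which Ppp2ca missed the threshold were the 8 arrays alone, the methyl parathion arm alone and the vehicle rats of the acetaminophen arm, with an adjusted p of up to 0.144.

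Of the called genes, 30 of the 37 that rose and 27 of the 36 that fell had a promoter in the RefSeq table of the rat assembly GRCr8. The 250 bases before the annotated start of Ppp2ca (chr10:36858787-36859036, plus strand) are shown because the gene has the smallest p and the window holds the cAMP response element TGACGTCA. This motif is bound by the transcription factor Creb1, and a part of Creb1 in the change of Ppp2ca was not tested. The capitals mark the motif, and the sequence ends at the base before the start.
Ppp2ca: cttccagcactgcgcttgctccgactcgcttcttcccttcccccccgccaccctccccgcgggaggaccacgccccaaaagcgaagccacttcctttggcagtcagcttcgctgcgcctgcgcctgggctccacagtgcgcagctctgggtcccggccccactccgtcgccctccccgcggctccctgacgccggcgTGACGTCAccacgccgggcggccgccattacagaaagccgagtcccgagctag
The window had a GC content of 70.4%, and the motif, which reads the same on both strands, matched 1 time with its first base 53 bases before the start. It was found in 0 of the 30 promoters of genes that rose, in 1 of the 27 of genes that fell, in 67 of 2612 promoters of all tested genes (2.57%) and in 1.70% of the 27457 promoters in the table. These counts describe letters in a window, and binding was not measured. A comparison of base composition between the sets was void, since 75% of the genes that fell had a promoter in the table.

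Sumo2, a ubiquitin-like protein that is attached to other proteins, fell by 0.88 on the log2 scale (SE 0.17, adjusted p = 0.00596, 1.84-fold lower). Its signals were 14.60, 14.88, 14.71 and 14.07 in the treated rats and 15.77, 15.49, 15.38 and 15.14 in the vehicle rats, so that the groups did not overlap. Cmklr1, the receptor for the chemoattractant chemerin, fell further, by 1.70 (SE 0.333, adjusted p = 0.0064, 3.24-fold lower). Cmklr1 was at 12.14, 11.93, 10.23 and 11.00 in treated rats 1 to 4 and at 13.38, 13.20, 12.53 and 12.96 in vehicle rats 1 to 4. Every treated rat was below every vehicle rat, with rats 3 and 4 lowest. Sumo2 passed the test under 18 of 22 other settings and Cmklr1 under 17. Against the vehicle rats of the acetaminophen arm the difference of Cmklr1 was -0.75 (adjusted p = 0.21).

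In several of the largest falls the treated rats differed widely from each other. Gja4, which encodes the gap junction protein connexin 37, was at 11.49, 9.29, 7.36 and 9.94 in the treated rats and between 11.41 and 11.77 in the vehicle rats. Treated rat 1 lay within the vehicle range and the other treated rats below it, and the signal fell by 2.09 (SE 0.473, adjusted p = 0.0152). Fxyd4, a regulator of the sodium pump, was at 11.68, 11.21, 7.59 and 9.96 against 11.79 to 12.46, and it fell by 2.14 (SE 0.526, adjusted p = 0.0239). Here too treated rat 1 was nearest to the vehicle rats and rat 3 farthest from them. Mag, the myelin-associated glycoprotein, was at 9.90, 7.76, 7.31 and 8.15 against 10.07 to 10.36, and it fell by 1.86 (SE 0.455, adjusted p = 0.0232). Only 1 treated array was above the signal-to-noise limit for Mag, so that this value is less certain. Clmp, an adhesion molecule of the coxsackievirus and adenovirus receptor family, fell by 1.12 (SE 0.289, adjusted p = 0.0292), also with 1 treated array above the limit. Add3, an adducin of the membrane skeleton, was at 11.31, 11.06, 10.74 and 9.30 in the treated and at 11.49 to 12.38 in the vehicle rats, and it fell by 1.44 (SE 0.384, adjusted p = 0.0346). For Add3 rat 4, not rat 3, was lowest. Several of these genes were higher in the methyl parathion vehicle rats than in those of acetaminophen, though not by the test. Against the latter the difference of Gja4 was -0.82 (adjusted p = 0.327), that of Fxyd4 -0.97 (adjusted p = 0.299) and that of Mag -0.52 (adjusted p = 0.539), while Clmp was at -0.87 and Add3 at -1.32.

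The receptor Notch2 fell by 1.13 (SE 0.307, adjusted p = 0.0386), with treated rats at 11.63, 10.05, 9.86 and 10.82 and vehicle rats at 10.94 to 12.23. The Notch2 groups overlapped through treated rat 1. Pcsk2, a protease that cuts prohormones, fell by 1.63 (SE 0.46, adjusted p = 0.045), and Rhoq, a small GTPase, fell by 1.19 (SE 0.34, adjusted p = 0.0481). Both had 1 treated array above the signal-to-noise limit, as had the olfactory receptor Or10am5, which fell by 1.44 (SE 0.414, adjusted p = 0.0483). Or5p78c, another olfactory receptor, had 2 treated arrays above the limit and fell by 1.29 (SE 0.359, adjusted p = 0.0432). Akap7, an anchoring protein of protein kinase A, had no treated array above the limit and was 3.00-fold lower as measured (adjusted p = 0.0488). The fold was 2.66 when each treated array was given the higher of 2 signals. These were the lowest signal among probes above the limit and the probe's own signal. Neither fold is a lower bound, and limma's confidence interval of the change ran from -2.51 to -0.66 on the log2 scale. Akap7 passed the test under 5 of 22 other settings and Rhoq under 6 of 21. Against the vehicle rats of acetaminophen the differences were -0.39 for Notch2, -0.74 for Pcsk2, -0.24 for Or10am5 and -0.61 for Or5p78c, and -0.80 for Rhoq and -1.28 for Akap7, with none past the threshold.

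Among the 18 falls named here, treated rat 3 was farthest from the vehicle rats in 10 and rat 4 in 6, and treated rat 1 was nearest to them in 11. Of the 18, 13 did not overlap between the groups, and 7 had at most 1 treated array above the signal-to-noise limit. Over all tested probes, 832 (7.35%) did not overlap, and of the called probes 80 of the 105 higher and 149 of the 240 lower did not. Lack of overlap was a condition for the largest changes named, so that the count of 13 was in part fixed by that choice and is not to be read against this share. Against the vehicle rats of acetaminophen 9 of the 18 falls shrank by more than 1.5 times or turned, and 0 passed the test. The plot of signals by rat shows this spread for the largest changes without overlap.

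**Figure D3:**
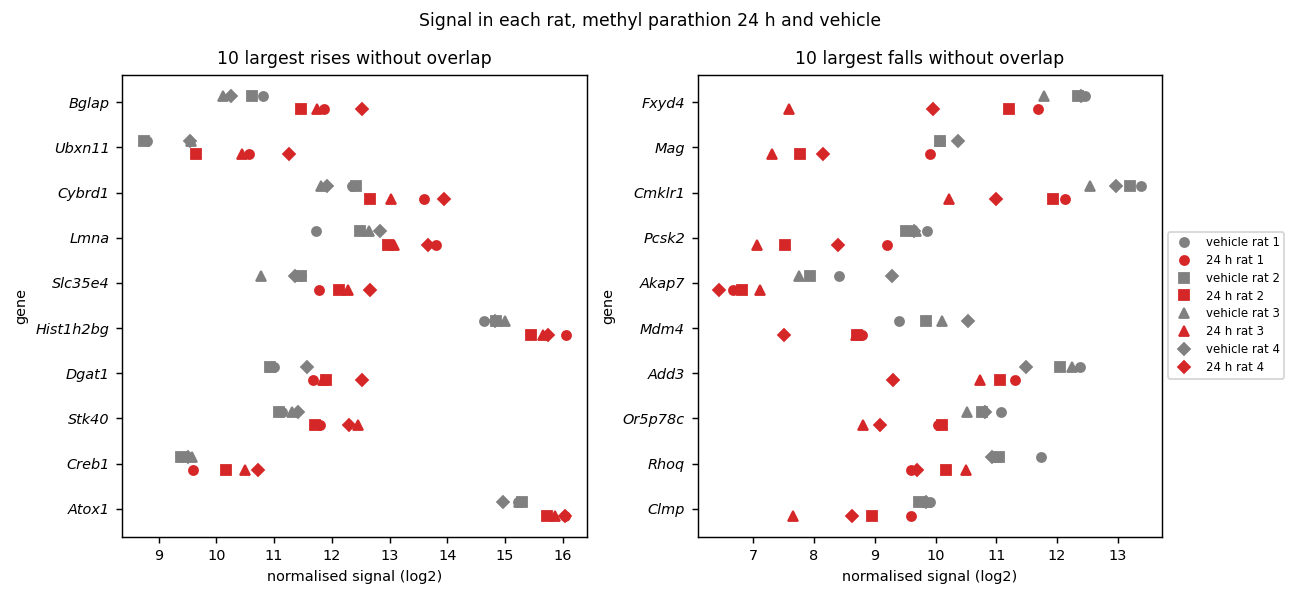
Normalised signal (log2, horizontal axis) of each rat for called genes whose groups did not overlap, the 10 that rose most (left) and the 10 that fell most (right); grey is vehicle, red is 24 h after methyl parathion, and the symbol gives the rat number, which pairs no animals. In Fxyd4 and Mag treated rat 1 sits closest to the vehicle rats and rat 3 farthest from them.

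Each of the 17 named genes that rose was above the signal-to-noise limit in all 4 treated arrays. Nfkbib, an inhibitor that holds NF-kB in the cytoplasm, was at 13.97, 13.99, 14.02 and 14.19 in the treated and at 13.17, 13.22, 13.67 and 13.44 in the vehicle rats. The groups did not overlap, and the rise was 0.67 (SE 0.13, adjusted p = 0.0064, 1.59-fold). Stk40, a pseudokinase that binds the ubiquitin ligase Cop1, rose by 0.82 (SE 0.162, adjusted p = 0.0064), from 11.09 to 11.41 in the vehicle rats to 11.71 to 12.45 in the treated. The solute carrier Slc35e4 rose by 0.94 (SE 0.212, adjusted p = 0.0149), with treated rats at 11.78, 12.12, 12.28 and 12.65 and vehicle rats at 11.46, 11.47, 10.77 and 11.35. Nfkbib passed the test under 17 of 22 other settings, and Stk40 and Slc35e4 under 16 each.

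Among the named rises without overlap, Hexa and Map1lc3a followed Nfkbib and Stk40 in the order of p. Hexa, the alpha chain of the lysosomal enzyme hexosaminidase, rose by 0.60 (SE 0.128, adjusted p = 0.011), with treated rats at 14.01, 14.47, 14.34 and 14.53 against 13.45, 13.67, 13.94 and 13.87. Map1lc3a, a light chain 3 protein of the autophagosome membrane, rose by 0.55 (SE 0.121, adjusted p = 0.0131), with treated rats at 16.45, 16.70, 16.67 and 16.79 against 15.95, 16.02, 16.25 and 16.20. Neither gene overlapped between the groups, and in both treated rat 1 was the lowest of the treated. Dgat1, which catalyses the last step of triglyceride synthesis, rose by 0.87 (SE 0.201, adjusted p = 0.017), with vehicle rat 4 at 11.58 above the other vehicle rats at 10.92 to 10.99 and just below the lowest treated rat at 11.68.

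Cybrd1, a ferric reductase, was at 13.59, 12.66, 13.03 and 13.94 in the treated and at 11.81 to 12.41 in the vehicle rats, a rise of 1.18 (SE 0.281, adjusted p = 0.0205). Atox1, a copper chaperone, rose by 0.74 (SE 0.212, adjusted p = 0.0483), from 14.97 to 15.29 in the vehicle rats to 15.72 to 16.04. Neither overlapped between the groups. The list of iron and haem genes, 16 tested, had 0 called members and a median of 0.17, which turned to -0.16 with median-centred arrays. Cybrd1 and Alad, an enzyme of haem synthesis that was called higher (0.89, adjusted p = 0.0364), are not members of that list; Alad is given here after its value was seen.

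Sgk1, a kinase induced by glucocorticoids, was at 12.94, 13.37, 13.03 and 13.35 against 12.40, 12.55, 12.19 and 12.62, a rise of 0.74 (SE 0.179, adjusted p = 0.0232). Ddit3, the transcription factor CHOP of the endoplasmic reticulum stress response, was at 13.63, 13.64, 13.46 and 13.99 against 12.74, 12.81, 13.05 and 13.25, a rise of 0.72 (SE 0.187, adjusted p = 0.0314). Neither gene overlapped between the groups. Creb1, a transcription factor activated by cAMP signalling, was at 9.59, 10.17, 10.49 and 10.73 against 9.38, 9.39, 9.59 and 9.50, a rise of 0.78 (SE 0.22, adjusted p = 0.045). Treated rat 1 and vehicle rat 3 were nearly equal for Creb1. The nuclear lamina gene Lmna rose by 0.96 (SE 0.26, adjusted p = 0.0391) and Hist1h2bg, a histone H2B gene, by 0.90 (SE 0.246, adjusted p = 0.0397). Histone H2B genes are near-identical copies, and which of them the probe reports was not tested.

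Named members of the p53 and apoptosis lists were called in both directions. Bax, which permeabilises the outer membrane of mitochondria, rose by 0.47 (SE 0.133, adjusted p = 0.045), with treated rats at 12.34, 12.92, 12.89 and 12.78 and vehicle rats at 12.20, 12.21, 12.43 and 12.21. The groups overlapped, since vehicle rat 3 was above treated rat 1. Mdm4, an inhibitor of p53, fell by 1.55 (SE 0.331, adjusted p = 0.0113), from 9.39 to 10.53 in the vehicle rats to 8.79, 8.70, 8.69 and 7.50, and 1 treated array was above the signal-to-noise limit. Casp4, an inflammatory caspase that responds to bacterial lipopolysaccharide, was at 11.68, 12.46, 12.49 and 11.58 against 12.58 to 13.02, and it fell by 0.73 (SE 0.188, adjusted p = 0.0286). In the lists, 1 of 16 tested p53 and DNA damage genes rose and 1 fell, as did 1 and 1 of 22 apoptosis genes, with medians of 0.03 and -0.08 beside -0.06 over all probes. Bax is a member of both lists.

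The remaining named rises were those of Zp4, Bglap and Ubxn11. Zp4, a glycoprotein of the egg coat, was at 12.28, 11.68, 12.23 and 12.76 against 10.09, 10.19, 11.70 and 11.50, a rise of 1.36 (SE 0.294, adjusted p = 0.0113) in which treated rat 2 and vehicle rat 3 met. Bglap, which encodes the bone protein osteocalcin, was at 11.87, 11.47, 11.74 and 12.53 against 10.81, 10.61, 10.11 and 10.25, a rise of 1.45 (SE 0.421, adjusted p = 0.0496). The groups did not overlap for Bglap, and it passed the test under 6 of 22 other settings. Ubxn11, a protein with a UBX domain, rose by 1.31 (SE 0.347, adjusted p = 0.0334). Among the 17 named rises treated rat 4 was farthest from the vehicle rats in 12, rats 1 and 2 were nearest in 8 each, and 15 did not overlap between the groups, a count in part fixed by choosing the largest changes without overlap (7.35% of all probes did not overlap). Against the vehicle rats of acetaminophen 8 of the 17 rises shrank by more than 1.5 times and 0 passed the test. These were Nfkbib (0.44), Stk40 (0.51), Map1lc3a (0.30), Slc35e4 (0.52), Dgat1 (0.46), Cybrd1 (0.79), Bax (0.08) and Creb1 (0.40).

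The genes closest to the action of the chemical gave few values. Ache, which encodes acetylcholinesterase, was above the signal-to-noise limit in 1 treated and 2 vehicle arrays, and in 7 of all 38, and was not tested. Bche, which encodes butyrylcholinesterase, was above it in 0 of the 8 arrays and in 2 of 38. These probes measure mRNA of leukocytes, and inhibition of the enzyme would not be seen in them. Of 27 named serine hydrolases on the array 12 were tested and 0 were called, with 4 at an unadjusted limma p under 0.05 (18.6% of all probes) and a median change of -0.01. Mgll, which degrades monoacylglycerols, went from a mean of 9.28 to 10.29 (adjusted p = 0.129) and Lipa, the lysosomal acid lipase, from 15.65 to 15.17 (adjusted p = 0.0784), and neither passed the test.

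Of 41 named genes of organophosphate activation and detoxification on the array, 19 were tested and 1 was called, with a list median of 0.02. Cyp2d1, a cytochrome P450, was at 13.21, 12.41, 12.08 and 12.57 in treated rats 1 to 4 and at 12.88, 13.23, 13.18 and 13.36 in vehicle rats 1 to 4. It fell by 0.60 (SE 0.171, adjusted p = 0.0481), although treated rat 1 was above vehicle rats 1 and 3. Against the vehicle rats of the acetaminophen arm the difference was 0.032 in the opposite direction (adjusted p = 0.938). The Cyp2d genes of the rat resemble each other closely, and cross-hybridisation of the probe was not tested. Of the cholinergic genes 5 of 28 on the array were tested and 0 were called. An unadjusted limma p under 0.05 was found for 3 (18.6% of all probes), and the list median was -0.48 over receptor subunits and choline kinases. Chrna4 and the choline kinase Chka entered the test through the vehicle side alone. The part of this filter in the median and in the unadjusted count was not tested. Chrna4, a subunit of neuronal nicotinic receptors, was at 9.43, 9.84, 7.25 and 10.52 against 10.36 to 10.94, and the difference of -1.28 (SE 0.483, adjusted p = 0.141) did not pass. For Chrna4 only 1 treated array was above the signal-to-noise limit. The mean of the cholinergic genes, relative to the methyl parathion vehicle mean, was -1.16 to 0.18 in the treated rats. It was -1.05 to -0.33 in the vehicle rats of acetaminophen.

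Across 35 gene lists, members were called in 8. The called members were Mag (brain and neuron genes), Cyp2d1 (detoxification), Sgk1 (glucocorticoid-induced genes), Ddit3 (endoplasmic reticulum stress genes), Rpl39 (cytosolic ribosomal protein genes), Mdm4 and Bax (p53), Casp4 and Bax (apoptosis) and Dgat1 (cholesterol and fatty acid genes). Each such list had 1 member called in a direction, against 0.928% of all probes called higher and 2.12% called lower. Rpl39, a protein of the large ribosomal subunit, fell by 0.53 (SE 0.14, adjusted p = 0.0339), with treated rats at 18.33, 17.90, 18.40 and 18.26 and vehicle rats at 19.15, 18.89, 18.57 and 18.38. The groups overlapped through treated rat 3 and vehicle rat 4. Of the 37 ribosomal protein genes 29 were below 0, with a median of -0.13 beside -0.06 over all probes, but the direction depended on the scaling. That median was -0.13 beside -0.31 with median-centred arrays and 0.23 beside 0.04 with the 75th percentile, above all probes in both. The medians of the neutrophil, monocyte, T cell, eosinophil, platelet and erythroid lists kept their sign under both scalings. So did those of the muscle, brain, cholinergic, glucocorticoid-induced, interferon and cholesterol lists. The medians of all other lists changed sign under one of these scalings, among them the serine hydrolase, detoxification, p53, apoptosis and inflammatory lists. The plot of list members shows how few of them passed the test.

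**Figure D4:**
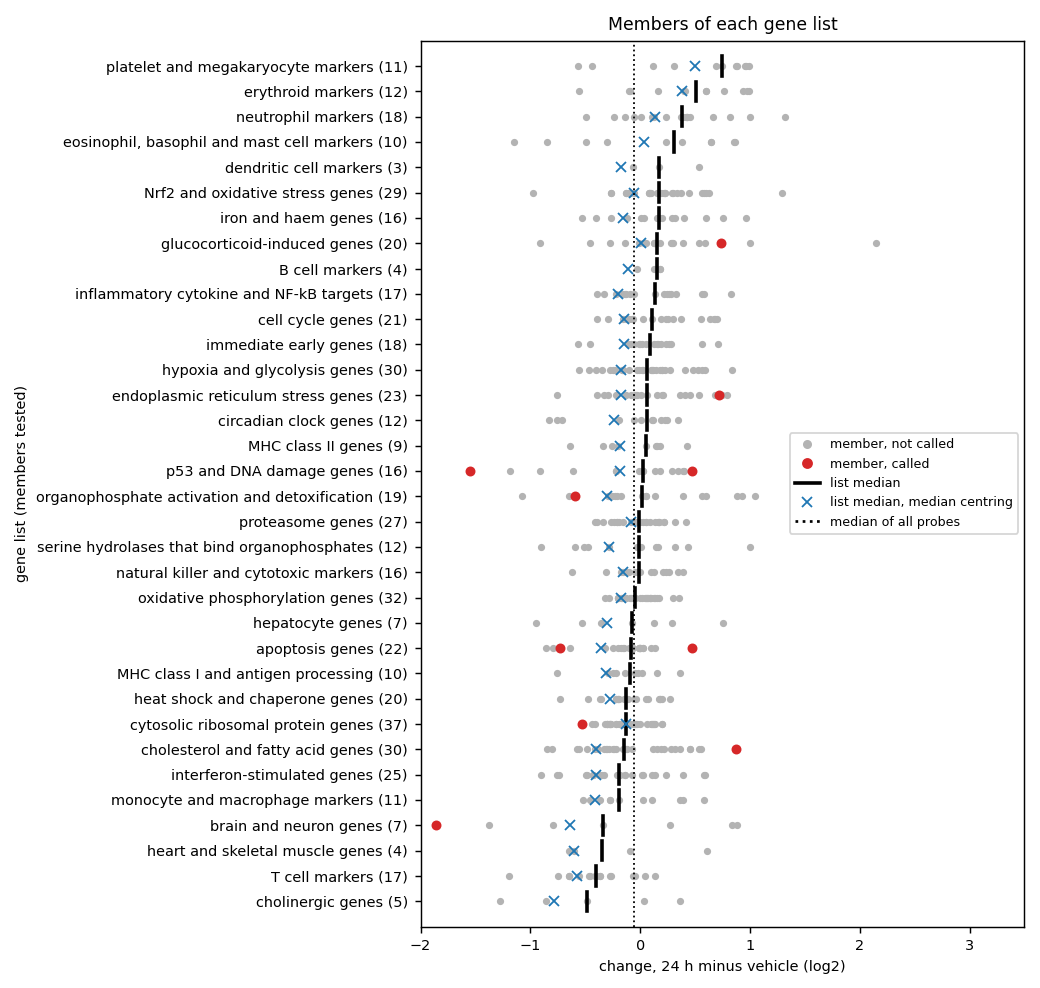
Change at 24 h (log2, horizontal axis) of each tested member of the gene lists with at least 3 tested members (vertical axis, number tested in brackets); red members were called, black bars are list medians, blue crosses the medians with median-centred arrays, and the dotted line is the median of all probes at -0.06. Platelet markers have the highest median at 0.74 and cholinergic genes the lowest at -0.48, and neither list has a called member. The cholinergic genes Chrna4 and Chka entered the test through the vehicle side alone.

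The leukocyte label fitted the T cell markers measured. Platelet and erythroid genes were detected as well, with 11 of 12 and 12 of 12 on the array tested. Cd3d of T cells was at a mean of 15.84 in the vehicle rats and Cd8a between 15.43 and 15.77, while most hepatocyte, brain and muscle genes were below the signal-to-noise limit (7 of 32, 7 of 22 and 4 of 14 on the array were tested). Of the T cell markers 15 of 17 were lower in the treated rats, with a median change of -0.40 and none called (6 at an unadjusted limma p under 0.05, against 18.6% of all probes). The mean of these markers, relative to the vehicle mean, was -0.53, -0.20, 0.08 and -0.94 in treated rats 1 to 4 and ran from -0.17 to 0.12 in the vehicle rats. Treated rats 1 and 4 were low and treated rat 3 was within the vehicle range. In RNA of mixed leukocytes, fewer cells of a type and less RNA per cell cannot be told apart.

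Platelet and megakaryocyte markers had a median of 0.74 over 11 tested genes, 9 of them above 0 and none called (5 at an unadjusted limma p under 0.05, against 18.6% of all probes). Their mean was 1.31, -0.05, 0.30 and 0.45 in treated rats 1 to 4 and -0.35 to 0.36 in the vehicle rats, so that rat 1 stood above the range and rat 2 within it. Erythroid markers had a median of 0.50 over 12 genes and likewise were highest in treated rat 1 (0.99) and lowest among the treated in rat 2 (-0.37). Gata1, a transcription factor of both lineages, went from a mean of 13.35 to 14.29 (adjusted p = 0.0714) and Nfe2, another, from 13.65 to 14.41 (adjusted p = 0.0699), and neither passed the test. The list medians with median-centred arrays were 0.50 for platelet and 0.39 for erythroid markers. Their part in the calls described above was not tested.

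Neutrophil markers had a median of 0.38 over 18 genes and 0.13 with median-centred arrays, with none called. Their mean was 0.36, 0.13, -0.13 and 0.95 in treated rats 1 to 4, and vehicle rat 4 stood at 0.70 above the other vehicle rats at -0.31 to -0.17. Natural killer and cytotoxic markers were at -0.60 in treated rat 1 and at 0.18 to 0.26 in the other treated rats, with a list median of -0.01. Monocyte and B cell markers had medians of -0.20 over 11 genes and 0.15 over 4, with none called. No member of these blood cell lists passed the test, and single rats stood apart in several of them.

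Glucocorticoid-induced genes had 15 of 20 tested members above 0, with a median of 0.15 and Sgk1 alone called. Their mean was 0.31, 0.19, 0.06 and 0.46 in treated rats 1 to 4 and -0.07 to 0.13 in the vehicle rats, and treated rat 3 lay within the vehicle range. Crispld2, a secreted protein of this list, went from a mean of 8.44 to 10.59 (change 2.15, SE 0.838, adjusted p = 0.152) and did not pass. With median-centred arrays the list median was 0.01 and no member was called. Of the endoplasmic reticulum stress genes 13 of 23 were above 0 with a median of 0.06. Beside Ddit3, the phosphatase regulator Ppp1r15a (0.68, adjusted p = 0.111) and the amino acid transporter Slc7a5 (0.79, adjusted p = 0.0758) did not pass the test. Interferon-stimulated genes had a median of -0.19 over 25 members with none called, Gbp2, a guanylate-binding protein, having the smallest p (-0.91, SE 0.274, adjusted p = 0.0617). Inflammatory cytokine and NF-kB target genes had none called among 17 and none at an unadjusted limma p under 0.05, against 18.6% of all probes.

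The same genes can be set beside their values at the other times, which were compared with the same 4 vehicle rats and so are not independent of the 24 h values. Over the 11319 probes, 0 were called at 4 h, 1077 at 12 h (9.51%, of which 3.56% higher and 5.95% lower) and 2369 at 168 h (20.9%, of which 10.3% higher and 10.7% lower), where the group held 3 rats. Ppp2ca was at -0.25 at 4 h, -0.39 at 12 h (adjusted p = 0.0293), -0.70 at 24 h and -0.66 at 168 h (adjusted p = 0.00071). Sumo2 was at -0.66, -0.96, -0.88 and -1.25 at 4, 12, 24 and 168 h, and the last 3 passed the test. Gja4 was at -0.45, -0.05, -2.09 and -2.33, and Mag at -0.20, -0.13, -1.86 and -1.81, both called at 24 and 168 h. Hist1h2bg and Mdm4 were called at 24 h and not at the other times, as were Akap7, Clmp, Or10am5, Rhoq and Rpl39. Hist1h2bg was at 0.13, 0.39, 0.90 and 0.45, and Mdm4 at -0.65, -0.78, -1.55 and -0.93. Mdm4, Akap7, Clmp, Or10am5 and Rhoq had at most 1 array above the signal-to-noise limit in the treated rats at 24 h. The differences between the times were not tested. Lmna had its highest value at 12 h (1.46) and was at 0.96 at 24 h. T cell markers had medians of -0.26, -1.01, -0.40 and -0.20 at the 4 times, with 12 of 17 members called lower at 12 h (5.95% of all probes) and none at 24 h.

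The change 24 h after methyl parathion was also tested against the change 24 h after acetaminophen, each from its own vehicle rats. The changes differed in 3200 of the 11319 probes (28.3%), and acetaminophen itself changed 4341 (38.4%). Ppp2ca differed between the chemicals by -0.57 (SE 0.166, adjusted p = 0.00933), since it was at -0.13 (adjusted p = 0.412) after acetaminophen. Hexa and Map1lc3a moved in opposite directions. Hexa rose by 0.60 after methyl parathion and fell by 0.62 after acetaminophen, a difference of 1.23 (SE 0.181, adjusted p = 5.33e-06), and Map1lc3a rose by 0.55 and fell by 0.68, a difference also of 1.23 (SE 0.171, adjusted p = 2.32e-06). Nfkbib rose by 0.67 and fell by 0.40 (difference 1.07, SE 0.185, adjusted p = 4.95e-05). Casp4 fell by 0.73 after methyl parathion and rose by 0.76 after acetaminophen (difference -1.49, SE 0.266, adjusted p = 7.02e-05), and Notch2 fell by 1.13 and rose by 1.08. Gja4, Notch2, Pcsk2 and Or10am5 were named for the size of this difference, which was -2.32, -2.21, -2.97 and -2.10 and is given for them as a description. Pcsk2 and Or10am5 had 1 treated array above the signal-to-noise limit.

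Other genes changed in the same direction after both chemicals. Ddit3 rose by 0.72 and by 0.69 (difference 0.03, SE 0.265, adjusted p = 0.951), and Lmna by 0.96 and 0.99 (difference -0.04, SE 0.368, adjusted p = 0.953). Sumo2 fell by 0.88 and by 0.80 (difference -0.08, SE 0.24, adjusted p = 0.838). A p that misses the threshold does not show that these genes changed alike. Sgk1 rose after both, by 0.74 after methyl parathion and by 1.47 after acetaminophen, and the difference of -0.74 passed the test (SE 0.253, adjusted p = 0.027). Of the 35 named genes 16 differed between the chemicals, against 28.3% of all probes, and nothing is read from that count, since 4 were chosen for the difference and all 35 for the 24 h change that is part of it. The plot of changes by chemical and time sets their values side by side.

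**Figure D5:**
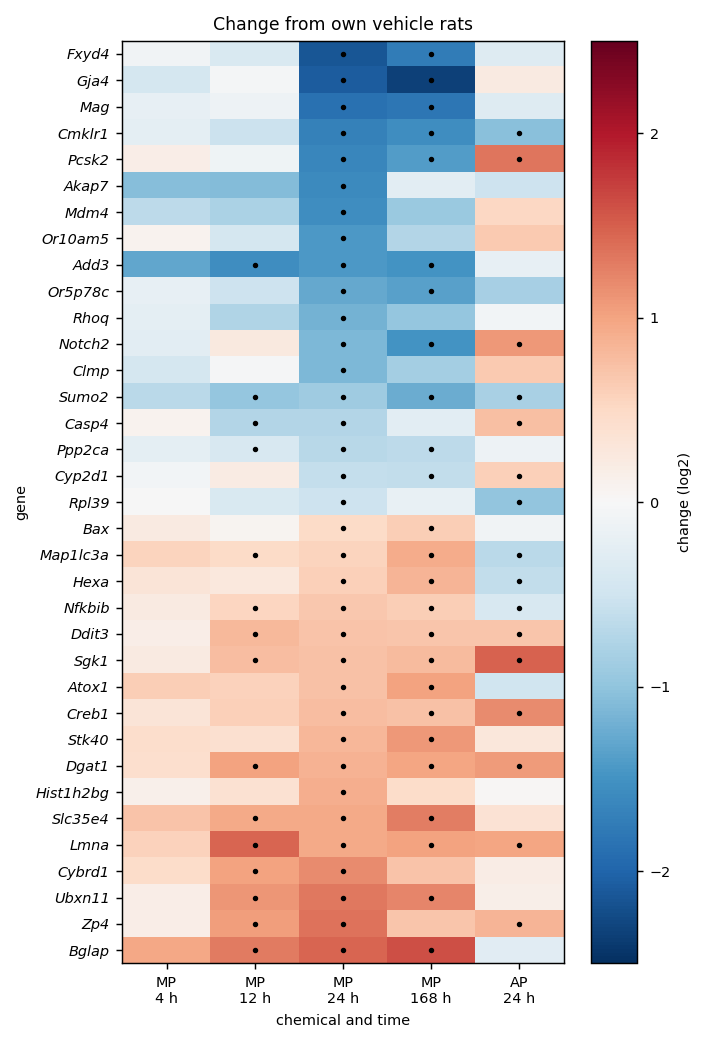
Change from the vehicle rats of the same chemical (log2, colour) of the 35 named called genes (vertical axis, ordered by the 24 h value) at 4, 12, 24 and 168 h after methyl parathion (MP) and 24 h after acetaminophen (AP); a black dot marks an adjusted p below 0.05. All 35 are marked at 24 h by the rule that chose them, none at 4 h, and several, such as Hexa, Map1lc3a and Notch2, have opposite colours for the 2 chemicals.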

How the data were processed

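RNA of blood leukocytes was measured on 1-colour Applied Biosystems rat arrays, 1 array per rat. The authors deposited a background-subtracted linear intensity per probe, a signal-to-noise score per probe, spot flags (a column of other kind, without a unit), and a series table of log2 values, which the values show to be quantile-normalized across arrays. Scanner software, slides and scan dates are not given in the sources used here, so that no batch was tested, and no genome build is stated for the array.

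Low log2 values were set to a lower limit of 84.7 in signal, their 5th percentile, and values of spots flagged at 5000 or above were left out (1.05% in the 8 arrays). A linear model of 10 groups was fitted over the 38 arrays (limma 3.58.1, R 4.3.3). Its prior on the variance depends on mean signal, with 28 residual and a median of 6.02 prior degrees of freedom. Tests were two-sided, Benjamini-Hochberg adjusted over 11319 probes in each comparison, with a threshold of 0.05. Each p and SE rests on the spread between single rats pooled over the 10 groups. The treated group had the largest spread of them (median SD 0.421 on the log2 scale). These values can therefore understate the spread of the treated rats. The number of arrays limits the precision.

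Gene names came from the platform annotation: 6104 probes had 1 symbol, 70 several and 20683 none, and 6081 symbols were updated through the gene ID. For lists, each gene was represented by its probe of highest mean signal. The genes named are those with 1 symbol and no flagged spot in the 8 arrays that were among the 10 largest rises or falls without overlap between the groups, the 5 smallest p in each direction, up to 3 called members per list (or its member of smallest p), or the 4 called genes with the largest difference from acetaminophen, and Ache and Bche. Members and lists were chosen with earlier results of these data known. A few further list members are given beside these, chosen after their values were seen. The fit was tested on simulated data. There it recovered 14.9% of 67 probes with a log2 difference of 0.5. It recovered 49.3% of 67 probes at 1 and 83.3% of 66 probes at 2. The 22 alternatives for the main comparison were other scalings, filters, floors, flags, weights and variance priors, a replicate block, other sets of rats and each rat left out.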

Additional observations from a re-analysis of the deposited data

Results flagged for a closer look

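Among the 4 rats of a group, single rats stood far from the other 3 in 11 named genes and 3 list means, by Dixon's criterion. Chance meets it in about 1 of 20 groups. With 60 named genes and many lists, each with a treated and a vehicle group, several such cases come by chance. Nothing is read from the number of rats that stood apart. In the treated group these were rat 4 for Mdm4 (7.50 against 8.69 to 8.79 in the others) and rat 1 for Tnnt3, a muscle troponin (10.59 against 11.39 to 11.54), C1qb, a complement component (12.24 against 11.34 to 11.45), and the natural killer and cytotoxic markers (-0.60 against 0.18 to 0.26). In the vehicle group they were rat 1 for Rhoq (11.73 against 10.93 to 11.04), rat 3 for Slc35e4 (10.77 against 11.35 to 11.47), Bax (12.43 against 12.20 to 12.21), RT1-DMa, a class II antigen-loading protein (14.25 against 13.85 to 13.88), and Ccl5 (18.94 against 19.05 to 19.06), and rat 4 for Dgat1 (11.58), Mag (10.36), Gbp2 (14.42), the neutrophil markers (0.70) and the heat shock and chaperone genes (-0.29).

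The change 24 h after methyl parathion differed from the change 24 h after acetaminophen in 26 of the 60 named genes, against 28.3% of all probes. Gja4, Notch2, Pcsk2 and Or10am5 were named for the size of that difference. Nothing is read from the count of 26, since most named genes were chosen by the 24 h change that is part of the difference. The difference, methyl parathion minus acetaminophen on the log2 scale, was above 0 among the called genes for Nfkbib (1.07), Hexa (1.23), Map1lc3a (1.23), Bax (0.57), Atox1 (1.23) and Bglap (1.74). It was below 0 for Ppp2ca (-0.57), Mdm4 (-2.07), Gja4 (-2.32), Sgk1 (-0.74), Casp4 (-1.49), Clmp (-1.78), Notch2 (-2.21), Pcsk2 (-2.97), Cyp2d1 (-1.20) and Or10am5 (-2.10). Among named genes that methyl parathion did not change by the test, it was above 0 for Cd8a (0.81), Uqcrh (0.95), Ccl5 (2.32) and Cd37 (0.88), and below 0 for Gbp2 (-2.35), Ccnd3 (-0.59), Gapdh (-1.06), C1qb (-2.53), Ltb4r (-5.09) and Hp (-4.72). After acetaminophen Ltb4r, a leukotriene receptor, rose by 6.41 and Hp, the acute phase protein haptoglobin, by 5.48.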

How the results depend on the processing

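Under 22 other settings the count of 345 probes stayed within 1.5 times of itself in 11. It was 157 without the detection filter (26830 probes tested) and 955 with array weights. The count was 0 with the 8 arrays only, 0 with the 19 arrays of the methyl parathion arm and 0 against the vehicle rats of acetaminophen. Fewer samples set the spread in the settings with 8 and 19 arrays, and the part of this in the counts was not tested. Leaving out 1 rat gave 20 (without treated rat 4) to 924 (without treated rat 1). With median centring the count was 375 (6 higher) and with 75th percentile centring 391 (234 higher). The difference from acetaminophen was called in 3200 probes, in 1941 with median centring, and in 2689 to 3942 when 1 rat was left out. Between the vehicle groups 0 probes were called, 1143 with array weights, 117 with the 8 vehicle arrays only, and 0 to 2 when 1 rat was left out. The causes of these differences between settings were not tested.

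The replicate numbers pair no rats: deviations of same-numbered treated and vehicle arrays correlated at -0.44, 0.29, -0.04 and 0.22, and a replicate block gave 343 calls, 312 of them shared. Against the vehicle rats of acetaminophen Cyp2d1 turned to 0.032 and Cd37 to -0.14, and neither passed the test there. Of the other values of the 60 named genes, 640 stayed on their side of the threshold, 179 lost and 18 gained the call, and with 1 rat left out 317 stayed, 157 lost and 6 gained it. List medians moved by more than the spread between rats in 40 of 408 cases. Probes near the signal-to-noise limit, such as Mag, Mdm4 and Akap7, have the least certain changes.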
